A study of Mus musculus with 12 samples.

Results

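The 10 genes described here are symbols commonly used to mark primitive, visceral or definitive endoderm: Gata4, Gata6, Sox17, Sox7, Foxa2, Dab2, Afp, Ttr, Cubn and Amn. They were taken by symbol from a table of 55487 genes, in which each occurs, and were followed through 4 groups of 3 RNA-seq libraries. The cells were female mouse embryonic stem (ES) cells of a C57BL6/CAST hybrid strain, so both parental genomes can be told apart at many bases. The groups were cells labelled SIRT7-KO (knockout of the deacylase gene Sirt7) at day 7 after withdrawal of LIF, WT cells at day 7, SIRT7-KO cells at day 0 with LIF, and WT cells at day 0 with LIF. LIF (leukaemia inhibitory factor) holds mouse ES cells in the undifferentiated state. The treatment label of the libraries (LIF or None) runs by replicate and genotype and not by day. It therefore does not bear out these LIF states, and the groups follow the day label. The number of clones behind each genotype is not given in the sources used here, so p-values measure only the spread between these libraries, which may be technical.

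Primitive endoderm is the early embryonic lineage that lines the blastocyst cavity and gives rise to visceral and parietal endoderm of the yolk sac. The zinc finger factors Gata6 and Gata4 and the HMG-box factors Sox17 and Sox7 act in it. Visceral endoderm takes up maternal protein through the receptor complex of cubilin (Cubn) and amnionless (Amn), with the clathrin adaptor Dab2, and secretes serum proteins such as alpha-fetoprotein (Afp) and transthyretin (Ttr). Definitive endoderm, which forms the gut, arises at gastrulation and expresses Foxa2 and Sox17. Several of these genes are not restricted to endoderm: Gata4 and Gata6 are also expressed in cardiac and lateral plate mesoderm, and Sox17 and Sox7 in endothelium.

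Library totals ran from 25190483 to 69079368 counts. Levels are in CPM, counts scaled to library size with the TMM method, a mean is given ± SD with n = 3 libraries, and a difference counts as called at an adjusted p of at most 0.05 over 19235 genes tested with edgeR's quasi-likelihood test. Of the 10 genes, 9 passed the filter on low counts and were tested. Afp did not, because it was listed at 0 in all 12 libraries. Sirt7, the gene named as deleted, was not lower in the libraries labelled knockout: its 3 values there were 25.1, 20.1 and 23.8 CPM at day 7, with wild type at 10.2, 10.6 and 15.3, and 19.2, 23.8 and 16.9 CPM at day 0, with wild type at 12.7, 8.03 and 10.3. On the log2 scale it was higher by 0.94 at day 7 (SE 0.21, adjusted p = 0.299) and by 0.95 at day 0 (SE 0.21, adjusted p = 0.182). Neither was called in this fit. Over the alternative fits, DESeq2 included, the adjusted p ran from 0.00951 to 0.713 at day 7 and from 0.00574 to 0.619 at day 0. Whether Sirt7 was called higher thus depended on the fit, and the counts do not show the deletion. Each direction between genotypes below follows the labels alone, and the libraries are called labelled knockout. A list of 12 pluripotency markers held naive factors and the general factors Pou5f1 and Sox2. Its sum was 478 to 502 CPM in libraries labelled knockout at day 7 and 450 to 500 CPM in wild type at day 7, against 7643 to 8127 and 7635 to 7805 CPM in the same genotypes at day 0. Of the 12 markers, 11 fell and 1 was not called in each genotype. Of all genes, 32.3% fell in libraries labelled knockout and 32.1% in wild type.

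Sequence is shown for stretches at which the gene models of these genes part: the junction that separates the main Gata4 transcripts, the regions before the alternative starts of Foxa2, and the region before the start of Afp. The transcripts Gata4-201 and Gata4-202 (chromosome 14, minus strand, GRCm38) differ by 23 bases at the start of exon 1 and by 3 bases at the start of exon 3, which is coding. The lines below give the last 30 bases of exon 2 and the first bases of exon 3, with the 3 additional bases of Gata4-201 in capitals. Exon 3 begins at 63204758 in Gata4-201 and at 63204755 in Gata4-202.
Gata4-201: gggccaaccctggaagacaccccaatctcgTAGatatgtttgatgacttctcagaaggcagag
Gata4-202: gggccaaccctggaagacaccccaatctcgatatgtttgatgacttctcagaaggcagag

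The RefSeq promoter table (GRCm38.p6) held 5 of the 10 genes, Foxa2, Dab2, Afp, Cubn and Amn. The windows shown run from 250 to 11 bases before the start, 240 bases each, and contain no annotated exon. They were searched on both strands for 4 motifs. The letters of the GATA factor motif were AGATAA, with TGATAA counted as well. Those of the SOX factor motif were ACAATG. Those of the FOX factor motif were TGTTTAC, with TATTTAC counted as well. Those of the HNF1 factor motif were GTTAAT, and no match overlapped another. Of 32851 promoter windows of this length, 16.2% held the GATA motif, 10.4% the SOX motif, 5.60% the FOX motif and 6.27% the HNF1 motif. Capitals mark a match.
Foxa2-201, chr2:148046980-148047219, minus strand: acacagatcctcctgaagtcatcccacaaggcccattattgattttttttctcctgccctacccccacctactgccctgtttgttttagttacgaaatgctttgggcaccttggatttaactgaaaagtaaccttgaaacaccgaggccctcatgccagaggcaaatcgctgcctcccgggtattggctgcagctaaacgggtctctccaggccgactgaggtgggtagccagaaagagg
Foxa2-202, chr2:148045959-148046198, minus strand: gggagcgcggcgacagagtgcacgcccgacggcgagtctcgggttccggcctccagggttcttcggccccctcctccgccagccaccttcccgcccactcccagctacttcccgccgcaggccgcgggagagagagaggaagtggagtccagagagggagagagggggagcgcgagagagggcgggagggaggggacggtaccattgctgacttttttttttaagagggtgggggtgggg
Afp, chr5:90490464-90490703, plus strand: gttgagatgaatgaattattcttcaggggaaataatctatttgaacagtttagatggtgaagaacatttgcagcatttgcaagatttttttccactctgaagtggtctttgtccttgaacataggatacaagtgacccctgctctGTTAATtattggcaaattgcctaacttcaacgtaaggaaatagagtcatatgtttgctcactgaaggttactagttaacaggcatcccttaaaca
Neither printed Foxa2 window held any of the motifs, and the Afp window held the HNF1 motif. The table has another Foxa2 window, before the start of a form of 775 bases with 0 counts in every library, and it held the GATA and the HNF1 motif. The windows before Cubn and Amn held none. Of both Dab2 windows, that before Dab2-201, a minor form here, held the GATA motif, and that before another minor form, which overlaps an annotated exon and spans the start of the main form Dab2-202, held the HNF1 motif. These are matches of letters only.

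Over the 7 days the endoderm genes did not move together. Of the 10 genes, 6 rose in both genotypes: in order of level per kilobase of exon at day 7, Gata4, Dab2, Gata6, Ttr, Foxa2 and Sox17. The HMG-box factor Sox7 and the receptor subunit Amn fell, Cubn passed in neither direction, and Afp had no reads. In libraries labelled knockout, 8 of the 9 genes tested were called, 6 higher and 2 lower, in a comparison in which 63.4% of all genes were called (31.1% higher and 32.3% lower). In wild type the same counts of 6 higher and 2 lower were found, where 65.1% of all genes were called (32.9% higher and 32.1% lower). The groups of different days did not overlap in 8 of the 9 genes in each genotype, as in 69.5% of all genes in libraries labelled knockout and 72% in wild type. The share called is read against a background in which most genes changed. The median log2 change of the 9 genes was 4.42 in libraries labelled knockout and 4.62 in wild type, against -0.024 and 0.0095 over all genes tested. In bulk samples, fewer cells of a type and less RNA per cell cannot be told apart.

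**Figure D1:**
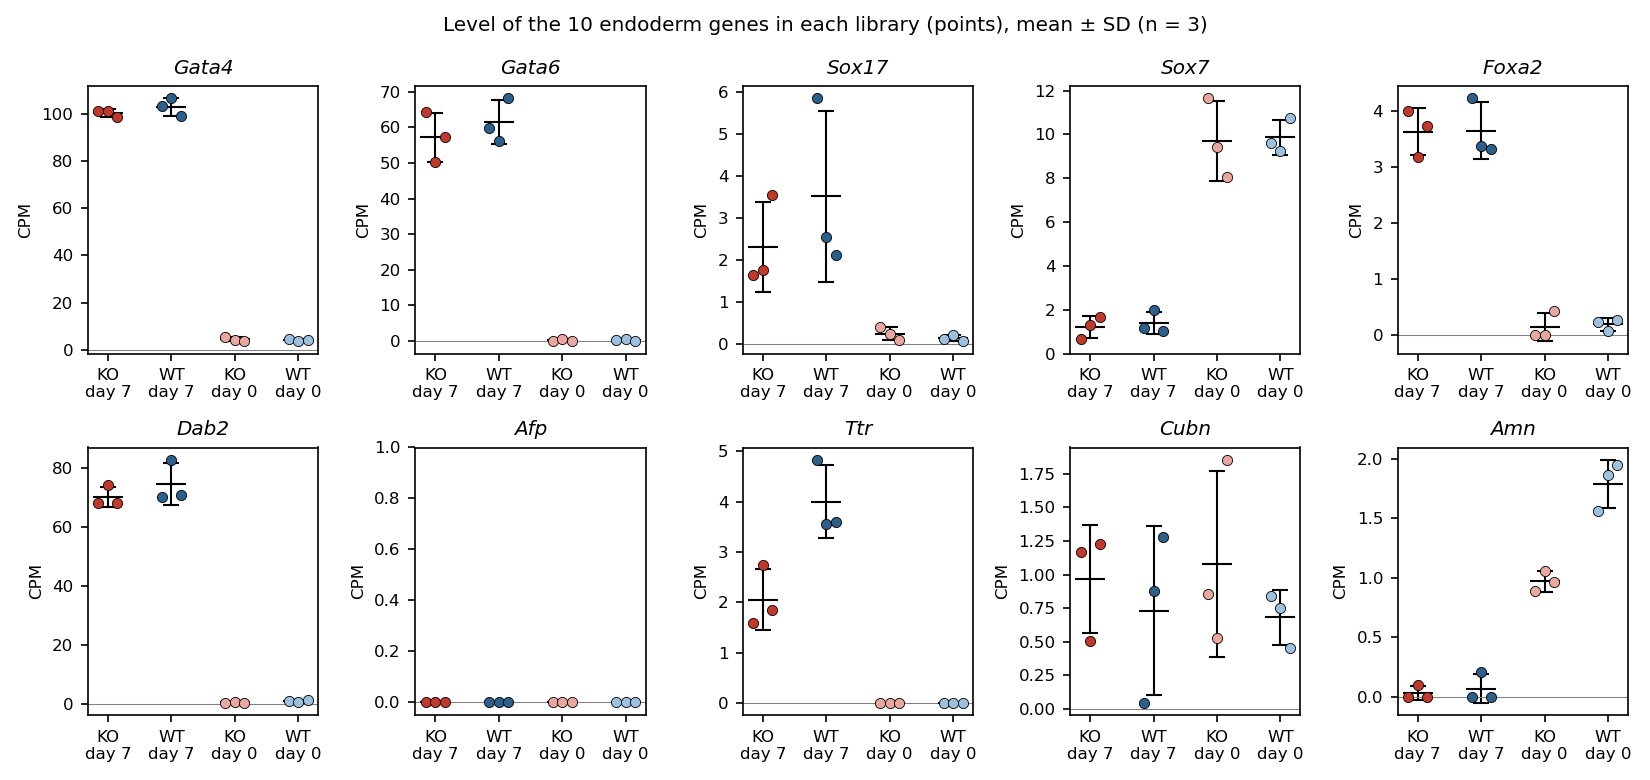
Level of each of the 10 genes in CPM (vertical axis, linear, with a separate scale for each gene) in the libraries labelled knockout (KO) and wild type (WT) at day 7 and day 0. Points are libraries, and bars are the mean ± SD of n = 3; Gata4, Gata6 and Dab2 stand at 50.4 CPM or more in every day 7 library and Afp at 0 throughout.

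Gata4 was the most abundant of the 10 genes at day 7. It had 101, 101 and 98.6 CPM in libraries labelled knockout at day 7 and 103, 106 and 99.1 CPM in wild type at day 7, against 5.46, 4.28 and 3.88 CPM and 4.39, 3.55 and 3.96 CPM at day 0. All day 7 libraries lay far above all day 0 libraries, and the genotypes overlapped on day 7. The log2 change was 4.47 in libraries labelled knockout (SE 0.14, adjusted p = 5.085e-10) and 4.70 in wild type (SE 0.14, adjusted p = 3.622e-10).

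Gata6, which acts with Gata4 in primitive endoderm and in the heart field, was nearly silent at day 0. It had 64.2, 50.4 and 57.2 CPM in libraries labelled knockout and 59.9, 56.2 and 68.2 CPM in wild type at day 7. At day 0 it had 0, 15 and 4 counts in libraries labelled knockout and 6, 20 and 0 counts in wild type. The groups of different days did not overlap, and the log2 change was 8.13 (SE 0.76, adjusted p = 2.942e-06) and 7.87 (SE 0.74, adjusted p = 2.947e-06). Without replicate 2 of the day 0 group, which held most of its reads, the change was 9.92 in libraries labelled knockout and 9.05 in wild type. Gata6os, annotated on the opposite strand and overlapping Gata6, had 24 to 59 counts in libraries labelled knockout and 33 to 62 in wild type at day 7 and 0 counts at day 0. Use of strand in counting is not given in the sources used here, so reads of the overlap cannot be assigned to either gene.

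Of the HMG-box factors, Sox17 and Sox7 went in opposite directions. Sox17 had 1.63, 1.76 and 3.55 CPM in libraries labelled knockout and 5.85, 2.55 and 2.13 CPM in wild type at day 7, against 0.409, 0.227 and 0.0964 CPM and 0.120, 0.212 and 0.0695 CPM at day 0. All day 7 libraries lay above all day 0 libraries, with wild type replicate 1 the highest. Its log2 change was 3.27 in libraries labelled knockout (SE 0.62, adjusted p = 0.000723) and 4.62 in wild type (SE 0.66, adjusted p = 8.684e-05). Without replicate 1 of the labelled knockout at day 0 the change in libraries labelled knockout was 3.90.

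Sox7 was the most abundant of the 10 genes per kilobase at day 0. It had 0.648, 1.28 and 1.64 CPM in libraries labelled knockout and 1.18, 1.99 and 1.05 CPM in wild type at day 7, against 11.7, 9.43 and 8.05 CPM and 9.63, 9.23 and 10.8 CPM at day 0. The days did not overlap. Sox7 fell by 3.03 on the log2 scale in libraries labelled knockout (SE 0.35, adjusted p = 1.537e-05) and by 2.79 in wild type (SE 0.34, adjusted p = 2.425e-05).

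Foxa2, a forkhead factor that opens chromatin in endoderm, node and floor plate, reached a low level. It had 3.99, 3.17 and 3.74 CPM in libraries labelled knockout and 4.23, 3.38 and 3.33 CPM in wild type at day 7. At day 0 it had 0, 0 and 18 counts in libraries labelled knockout and 6, 3 and 8 counts in wild type. Reads of day 0 in the labelled knockout therefore came from replicate 3 alone. Foxa2 rose by a log2 change of 4.42 (SE 0.86, adjusted p = 0.0008703) and 4.27 (SE 0.86, adjusted p = 0.00108). Without that library the fitted change in libraries labelled knockout was 10.004, a value set by a day 0 group at 0.

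The proteins of uptake and secretion split further. Dab2, the adaptor that links megalin and cubilin to clathrin, had 68.4, 74.2 and 68.3 CPM in libraries labelled knockout and 70.3, 83.0 and 71.1 CPM in wild type at day 7. At day 0 it had 0.443, 0.719 and 0.554 CPM in libraries labelled knockout and 1.08, 0.777 and 1.49 CPM in wild type. All day 7 libraries stood above all day 0 libraries, with a log2 change of 6.94 (SE 0.24, adjusted p = 1.333e-09) in libraries labelled knockout and 6.08 (SE 0.23, adjusted p = 2.099e-09) in wild type.

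Amn, the membrane anchor of cubilin, moved the other way. It had 0, 3 and 0 counts in libraries labelled knockout and 0, 14 and 0 counts in wild type at day 7, so that its day 7 reads came from replicate 2 of each genotype. Of the 14 counts in wild type, 11 were given to Amn-203, a form that keeps an intron. At day 0 it had 26, 28 and 40 counts, or 0.887, 1.06 and 0.964 CPM, in libraries labelled knockout and 39, 79 and 56 counts, or 1.56, 1.86 and 1.95 CPM, in wild type. Per library size, day 0 over day 7 gave a ratio of 31.9 in libraries labelled knockout (95% counting interval 10.6 to 158) and 17.6 in wild type (10.2 to 32.9), and both changes were called (adjusted p = 0.003861 and 0.002653). The fitted log2 change was -4.82 in libraries labelled knockout and -4.33 in wild type. Without day 7 replicate 2 of the genotype, which leaves that group at 0, it was -8.14 and -8.88, and without day 7 replicate 1 of the labelled knockout it was -4.19 in that genotype. These intervals, like the others over counts, cover counting error only.

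Cubn, the ligand-binding subunit for intrinsic factor, transferrin and albumin, was low on both days. It had 1.17, 0.507 and 1.23 CPM in libraries labelled knockout and 0.0462, 0.876 and 1.28 CPM in wild type at day 7, against 0.852, 0.530 and 1.86 CPM and 0.839, 0.753 and 0.452 CPM at day 0. All 4 groups overlapped. The log2 change was -0.17 in libraries labelled knockout (SE 0.80, adjusted p = 0.8651) and 0.08 in wild type (SE 0.82, adjusted p = 0.9383).

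Ttr, the thyroid hormone and retinol-binding protein carrier secreted by visceral endoderm and liver, had no reads at day 0. At day 7 it had 61, 81 and 57 counts, or 1.58, 2.74 and 1.84 CPM, in libraries labelled knockout and 209, 240 and 93 counts, or 4.83, 3.56 and 3.60 CPM, in wild type. Against a floor of 3 counts over the day 0 group, it was at least 65.0-fold higher in libraries labelled knockout (adjusted p = 1.766e-05) and at least 127-fold higher in wild type (adjusted p = 8.521e-06). Afp, the serum protein that marks mature visceral endoderm, had no read on any day, where 3 counts would have been 0.0445 to 0.120 CPM.

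Per kilobase of annotated exon, the order at day 7 was the same in both genotypes: Gata4, Dab2, Gata6, Ttr, Foxa2, Sox17, Sox7, Cubn, Amn, then Afp at 0. Gata4 led at 25.3 to 26.0 CPM per kilobase in libraries labelled knockout and 25.4 to 27.3 in wild type. Dab2 followed at 9.31 to 10.1 and 9.57 to 11.3 CPM per kilobase, a range that overlapped that of Gata6 (7.74 to 9.87 and 8.64 to 10.5). Ttr at 1.33 to 2.31 and Foxa2 at 1.34 to 1.69 CPM per kilobase overlapped in libraries labelled knockout, whereas in wild type Ttr (3.004 to 4.08) stood above Foxa2 (1.41 to 1.79). Sox17 (0.343 to 0.743 and 0.446 to 1.23) overlapped Sox7 (0.197 to 0.499 and 0.317 to 0.603) in both genotypes. At day 0 the order began with Sox7, at 2.44 to 3.53 CPM per kilobase in libraries labelled knockout and 2.80 to 3.27 in wild type, then Gata4 (0.994 to 1.40 and 0.911 to 1.13) and Amn (0.481 to 0.575 and 0.845 to 1.06). In wild type at day 0, Gata4 and Amn overlapped. At day 7 Cubn and Amn overlapped in both genotypes.

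The deposited transcript estimates sum exactly to the gene counts of these 10 genes. For Gata4 they assign the reads of the days to different forms. Gata4-202, the form without the 3 additional bases shown above, held 93.5, 94.6 and 82.4% of Gata4 counts in libraries labelled knockout and 97.4, 95.6 and 93.2% in wild type at day 7. At day 0 it held 95.6, 0 and 0% in libraries labelled knockout and 0, 5.96 and 0% in wild type. Replicate 1 of the labelled knockout at day 0, with 153 of 160 counts, therefore stood with the day 7 libraries, and the other 5 day 0 libraries had at least 94.0% of Gata4-201. No test was made on these estimates.

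Foxa2 counts were given wholly to a single form in every library with reads. At day 7 that form was Foxa2-202, the one with the downstream start, in replicate 2 of the labelled knockout and in replicates 2 and 3 of wild type, and Foxa2-201 in the other 3 libraries. All 4 day 0 libraries with reads had Foxa2-201. The starts of both forms are those whose upstream windows are printed above, and replicates of a group differed completely in the form assigned. For Sox17, the form Sox17-201 (3127 bases) held 206 of 253 counts, or 81.4%, in wild type replicate 1 of day 7. It held 0, 5.77 and 15.5% in libraries labelled knockout and 6.40 and 0% in the other wild type libraries at day 7, in which a short form of 840 bases held 66.7 to 86.0%. Leaving out Sox17-201, Sox17 had 1.63, 1.65 and 2.999 CPM in libraries labelled knockout and 1.09, 2.39 and 2.13 CPM in wild type at day 7. The library with the highest Sox17 level was thus also the one with another assigned form. Gata6 and Dab2 showed no such split at day 7, with 96.2 to 98.0% of Gata6 in Gata6-201 and 94.7 to 98.1% of Dab2 in Dab2-202.

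**Figure D2:**
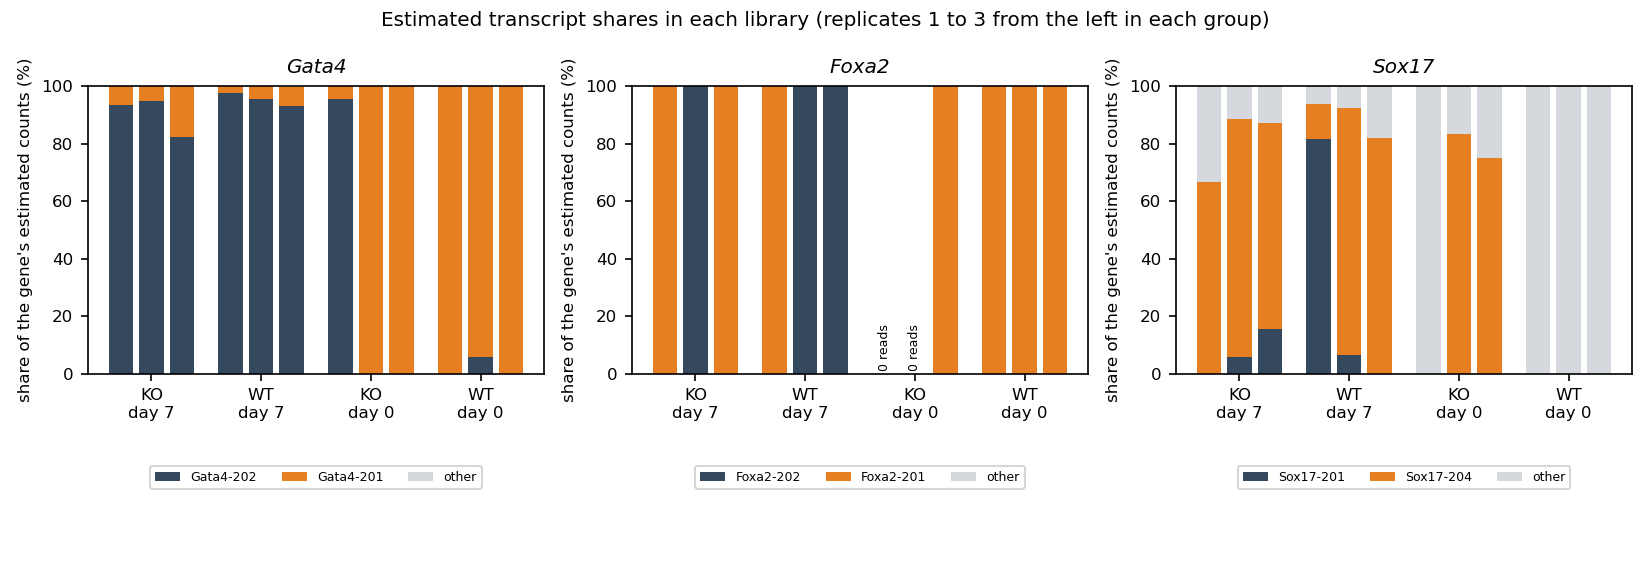
Share of the estimated counts of Gata4, Foxa2 and Sox17 given to each transcript (vertical axis, percent) in each library, grouped as labelled knockout (KO) and wild type (WT) at day 7 and day 0. Gata4-202 held at least 82.4% in every day 7 library, while the Foxa2 and Sox17 forms differed between replicates.

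The comparison of libraries labelled knockout with wild type called none of the 9 genes. At day 7 edgeR called 0.026% of all genes (5 genes), 8.18% had an unadjusted p under 0.05, and among the 9 endoderm genes Ttr alone had. Ttr averaged 2.05 ± 0.606 CPM in libraries labelled knockout and 3.999 ± 0.723 CPM in wild type at day 7 (SD, n = 3 each). All 3 labelled knockout libraries lay below all 3 wild type libraries, as did those of 12.8% of all genes. The log2 difference was -0.96 (SE 0.33, adjusted p = 0.5488), and over the fits that changed the processing or left out a library it ran from -1.23 to -0.81 with an adjusted p from 0.309 to 1.

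The other genes at day 7 overlapped between genotypes. Gata4 differed by -0.04 (SE 0.12), Dab2 by -0.09 (SE 0.18) and Gata6 by -0.10 (SE 0.50) on the log2 scale, with adjusted p-values of 0.9968, 0.9759 and 1. Foxa2 differed by -0.0045 (SE 0.68), Sox7 by -0.27 (SE 0.34), Cubn by 0.42 (SE 0.81) and Sox17 by -0.61 (SE 0.52), with adjusted p from 0.839 to 1. Amn had 3 counts in all in libraries labelled knockout and 14 in wild type at day 7 (adjusted p = 0.8674).

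At day 0 edgeR called 0.13% of all genes (25 genes), 11.9% had an unadjusted p under 0.05, and none of the 9 endoderm genes was called. Dab2 averaged 0.572 ± 0.139 CPM in libraries labelled knockout and 1.12 ± 0.36 CPM in wild type at day 0 (SD, n = 3 each), with a log2 difference of -0.95 (SE 0.24, unadjusted p = 0.002427, adjusted p = 0.2167). Amn averaged 0.970 ± 0.0868 and 1.79 ± 0.204 CPM, with a log2 difference of -0.88 (SE 0.84, adjusted p = 0.735). In both genes all labelled knockout libraries lay below all wild type libraries, as did those of 7.22% of all genes. For Amn, a form that keeps an intron (Amn-202) held 11, 39 and 0 counts in wild type and 0 in each labelled knockout library. The coding form Amn-201 held 24, 28 and 39 counts in libraries labelled knockout and 27, 36 and 54 in wild type. Those counts overlap before scaling to library size, so the separation of Amn is that of the gene total. DESeq2 called Dab2 at day 0 (log2 difference -0.95, adjusted p = 0.0414), and this was the single gene of the 9 that DESeq2 called between genotypes. Leaving out 1 library at a time, the edgeR difference of Dab2 at day 0 ran from -1.18 to -0.68 with an adjusted p from 0.0951 to 0.396. Ttr had no reads at day 0, and the other 6 genes overlapped between genotypes.

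The interaction, which is the change over 7 days in libraries labelled knockout minus that in wild type, called none of the 9 genes either. By edgeR 0.026% of all genes were called (5 genes), 6.86% had an unadjusted p under 0.05, and DESeq2 called none of the 9. Dab2 had an edgeR interaction of 0.86 (SE 0.30, adjusted p = 0.5893) and alone had an unadjusted p under 0.05, with similar levels at day 7 and the lower labelled knockout level at day 0 given above. Sox17 had -1.35 (SE 0.89, adjusted p = 0.8433), and for Ttr, at 0 in both day 0 groups, no interaction can be estimated.

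**Figure D3:**
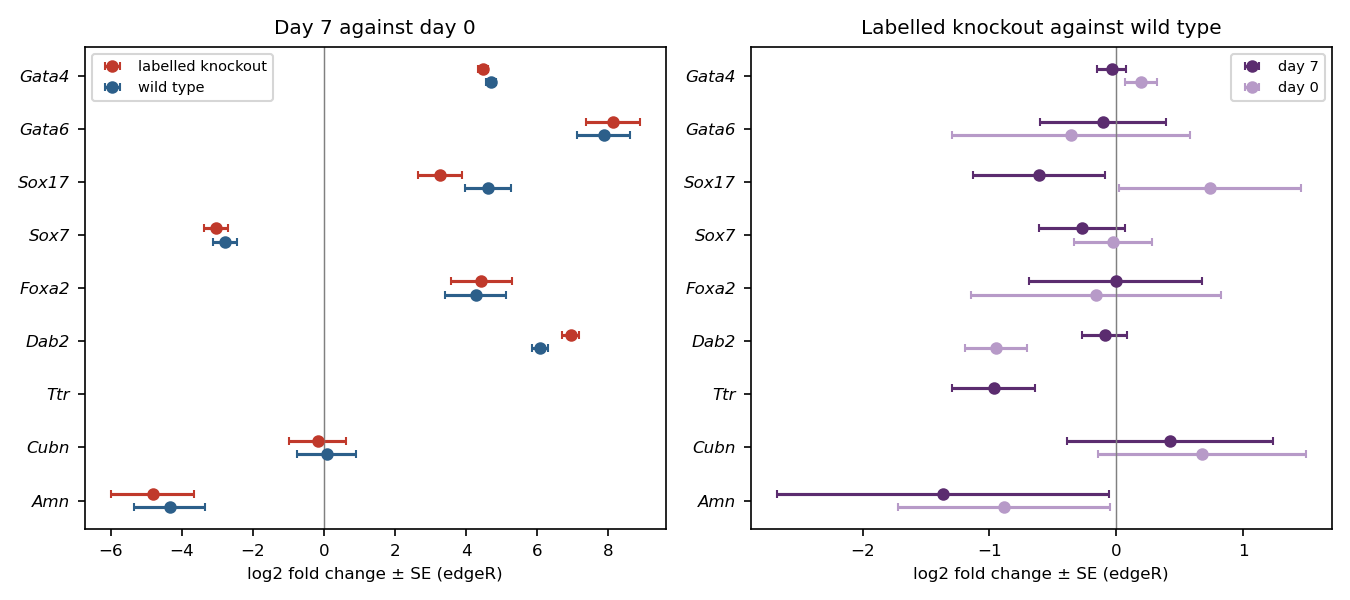
Log2 fold change ± SE from edgeR (horizontal axis) of the 9 genes tested, day 7 against day 0 at the left and labelled knockout against wild type at the right. Ttr is drawn only for the genotypes at day 7 because it had 0 counts at day 0, and Gata6, Dab2 and Gata4 have the changes of 8.13, 6.94 and 4.47 in libraries labelled knockout.

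Other genes of the same lineages and processes were taken from lists of related genes. Their counts are read against all genes tested. Of those, 31.1% rose and 32.3% fell in libraries labelled knockout, and 32.9% rose and 32.1% fell in wild type. Of 15 other primitive endoderm genes, all tested, 12 rose, 2 fell and 1 was not called over 7 days in libraries labelled knockout, and 10 rose, 2 fell and 3 were not called in wild type. Their median log2 change was 1.70 in libraries labelled knockout and 1.95 in wild type. The PDGF receptor gene Pdgfra had 100.3 ± 1.96 CPM in libraries labelled knockout and 92.1 ± 4.94 CPM in wild type at day 7, against 0.723 ± 0.164 and 0.702 ± 0.140 CPM at day 0, a log2 change of 7.09 and 7.06. The tissue plasminogen activator gene Plat rose by 6.06 and 5.10, to 44.9 ± 1.42 and 34.6 ± 6.33 CPM. Gata5, a GATA factor of endoderm and heart, reached only 0.253 ± 0.221 and 0.634 ± 0.137 CPM at day 7, and both changes were called (adjusted p = 0.01721 and 0.0119). Srgn, which encodes the proteoglycan serglycin, fell to 0 counts in both day 7 groups, against 1.10 ± 0.0340 and 0.511 ± 0.118 CPM at day 0, so that it was at least 36.4-fold lower in libraries labelled knockout and at least 22.2-fold lower in wild type.

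The lists of visceral endoderm were split, where 63.4% of all genes were called in libraries labelled knockout and 65.1% in wild type. Of 15 other visceral endoderm genes 12 were tested, of which 6 rose and 6 fell in libraries labelled knockout and 6 rose, 4 fell and 2 were not called in wild type. Bmp2, a signal that visceral endoderm sends to the epiblast, rose by a log2 change of 9.12 (SE 0.50) in libraries labelled knockout and 8.03 (SE 0.46) in wild type, and Slc39a8, a zinc and manganese importer, by 7.21 (SE 0.42) and 6.90 (SE 0.42). Rhox5, an X-linked homeobox gene, had log2 changes of -5.40 and -5.55, and Soat2, a cholesterol acyltransferase, of -4.68 and -4.94, all called. Of 14 other secreted proteins of visceral endoderm and liver 9 were tested, of which 2 rose, 5 fell and 2 were not called in libraries labelled knockout and 2 rose, 4 fell and 3 were not called in wild type. The median log2 change of these secreted proteins was -1.80 and -0.93. The transferrin gene Trf had log2 changes of -3.93 and -3.72, the apolipoprotein gene Apom of -3.96 and -2.46, and the prothrombin gene F2 of -2.67 and -3.59, all called. Leaving out 1 library at a time, the change of F2 in wild type ran from -7.57 to -3.07. F10, which encodes coagulation factor X, rose to 0.361 ± 0.0885 and 0.754 ± 0.459 CPM, against 0 and 2 counts over the day 0 groups (adjusted p = 0.002996 and 0.002946). Alb, Apoc2 and Serpina1b, like Afp, had no reads in any group.

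Definitive endoderm genes rose for the most part, where 31.1% of all genes rose in libraries labelled knockout and 32.9% in wild type. Of 20 other genes of definitive endoderm and foregut 17 were tested, of which 12 rose, 2 fell and 3 were not called in libraries labelled knockout and 12 rose, 1 fell and 4 were not called in wild type. The median log2 change with genes at 0 set to their bound was 3.83 in libraries labelled knockout and 4.03 in wild type. The mesendoderm factor Mixl1 rose by 6.63 (SE 0.22) and 6.44 (SE 0.21) to 75.9 ± 1.999 and 68.5 ± 3.63 CPM. Lhx1, a LIM homeobox factor of mesendoderm, rose by 8.14 (SE 0.70) and 9.08 (SE 0.75), and Sox9, an HMG-box factor of foregut and many other tissues, by 10.02 (SE 0.66) and 8.84 (SE 0.58). Tmprss2, a membrane serine protease, had 10.2 ± 1.18 and 8.72 ± 0.446 CPM at day 7 and no reads at day 0, at least 330-fold and 284-fold higher.

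Genes of the basement membrane, which parietal endoderm produces in large amount, rose widely. Of all genes, 31.1% rose in libraries labelled knockout and 32.9% in wild type. Of 9 genes, 8 rose and 1 was not called in libraries labelled knockout, and all 9 rose in wild type. Col4a1 and Col4a2, the chains of type IV collagen, rose by 3.39 (SE 0.44) and 3.63 (SE 0.14) in libraries labelled knockout and by 4.13 (SE 0.46) and 3.58 (SE 0.14) in wild type. The genes overlap head to head at their starts, and Col4a1 varied between replicates, with 771 ± 230 and 692 ± 226 CPM at day 7. The laminin gene Lamb1 rose by 2.64 and 2.81 and Sparc, which encodes a collagen-binding matrix protein, by 2.11 and 2.09.

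Among 19 genes that work with cubilin and Dab2 in uptake of protein and vitamin B12, 13 rose, 3 fell and 3 were not called in libraries labelled knockout, and 13 rose, 4 fell and 2 were not called in wild type. Their median log2 change was 0.60 and 0.69. The endocytic receptor gene Lrp1 rose by 2.89 (SE 0.14) in libraries labelled knockout and by 3.25 (SE 0.14) in wild type. The clusterin gene Clu, whose product is a ligand of megalin, rose by 2.85 and 3.29. The folate receptor gene Folr1 fell, with log2 changes of -3.63 (SE 0.26) and -4.30 (SE 0.26), to 7.91 ± 1.19 and 7.26 ± 0.489 CPM, against 98.1 ± 32.8 and 143 ± 27.6 CPM at day 0. Dab2 and Lrp1 were thus higher at day 7 while the cubilin anchor Amn was lower.

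**Figure D4:**
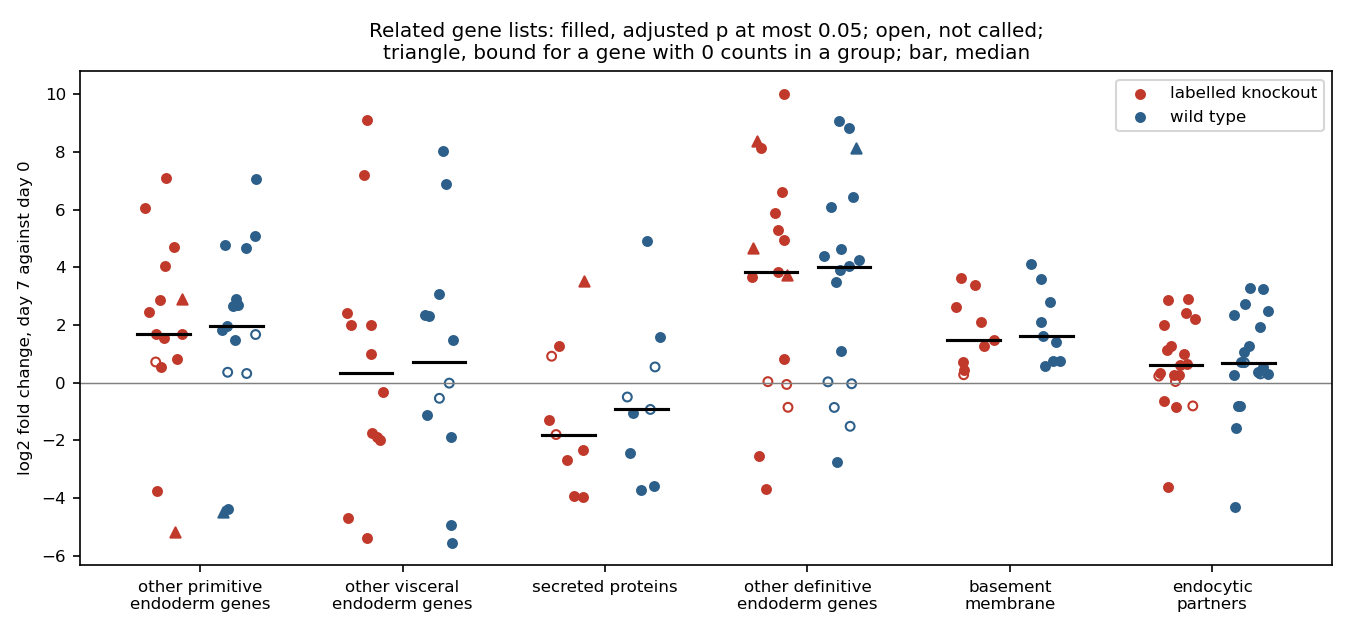
Log2 fold change of day 7 against day 0 (vertical axis) of the genes tested in 6 related lists, in libraries labelled knockout and in wild type. Each symbol is a gene, triangles are bounds for genes at 0 counts in a group, and bars are medians, which are highest for definitive endoderm (3.83 and 4.03) and below 0 for secreted proteins (-1.80 and -0.93).

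No gene of these 6 lists was called between genotypes at day 7, at day 0 or in the interaction. Among the marker lists of other cell types, the naive pluripotency factor Esrrb was called at day 0 (log2 difference 2.40, SE 0.22, adjusted p = 0.001475). The endothelial adhesion gene Pecam1 was as well (0.46, SE 0.07, adjusted p = 0.04314), and both were higher in libraries labelled knockout. Leaving out 1 library at a time, the edgeR adjusted p of Pecam1 ran from 0.0566 to 0.127, so each such fit lost the call. Over all alternatives, DESeq2 included, the adjusted p ran from 1.57e-05 to 0.61 for Pecam1 and from 7.76e-22 to 0.0884 for Esrrb.

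Markers of other cell types that share these genes also moved over the 7 days. Among all genes, 31.1% rose and 32.3% fell in libraries labelled knockout, and 32.9% rose and 32.1% fell in wild type. Of 15 markers of cardiac and lateral plate mesoderm, which include Pdgfra and Gata5, 14 rose and 1 fell in each genotype, and their summed level was 2235 to 2325 CPM in libraries labelled knockout and 2632 to 2912 CPM in wild type at day 7, against 61.1 to 65.8 and 71.6 to 93.1 CPM at day 0. Of 10 markers of blood and endothelium, 9 rose and 1 fell in libraries labelled knockout and 8 rose, 1 fell and 1 was not called in wild type, and their sum was 225 to 261 and 255 to 272 CPM at day 7, against 70.7 to 72.3 and 58.3 to 60.1 CPM at day 0. Of 9 trophoblast markers 6 were tested, and 3 rose and 2 fell in each genotype, with a sum of 134 to 145 and 143 to 166 CPM at day 7 against 59.5 to 72.2 and 48.8 to 57.0 CPM at day 0, and Tpbpa and Prl3d1 at 0 in every group. Of 8 neural markers 5 were tested, and 1 rose and 4 fell in each genotype, with a sum of 250 to 262 and 210 to 244 CPM at day 7 against 354 to 413 and 404 to 461 CPM at day 0. Of 7 fibroblast markers, 6 rose and 1 fell in each genotype, with a sum of 1075 to 1121 and 1308 to 1533 CPM at day 7 against 32.1 to 34.6 and 24.4 to 32.3 CPM at day 0. For comparison, the 10 endoderm genes summed to 236 to 243 and 249 to 258 CPM at day 7. The part of these cell types in the levels of Gata4, Gata6, Sox17 and the other genes was not tested.

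Across the 12 libraries, the genes most like each endoderm gene were found by the root mean square difference of centred log2 CPM, as a description over libraries that share their groups. Nearest to Gata4 were Selenon (0.121) and Podxl (0.128), with log2 changes of 4.41 and 4.54 in libraries labelled knockout. Nearest to Dab2 were Prtg (0.215) and Tgfb1i1 (0.228), nearest to Ttr Arl4c (0.292) and Cdc42ep1 (0.357), and nearest to Sox7, which fell, Mlh3 (0.334) and Ccdc92 (0.338). Distances were larger for 4 other genes: Cubn had Trp53inp1 (0.510) and Gpr19 (0.530), Sox17 Yaf2 (0.522) and Boc (0.534), Amn Nqo1 (0.556) and Frrs1 (0.607), and Foxa2 had Adamts9 (0.690). Gata6 had the largest distances, with Nrp1 at 0.887 and Col1a1 at 0.914. Low counts, such as 0 to 20 in the day 0 libraries for Gata6, add counting error to these distances. Its part in them was not tested.

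The hybrid cells allow another readout, namely which parental genome the reads came from. In each library 29.7 to 32.0% of gene reads were assigned to genome 1 or genome 2, and genome 2 held 27.0 to 28.0% of those. The strain behind each genome is not named in the files. These split counts differ from the gene counts used above. For Gata4 in libraries labelled knockout, they held 5634 assigned and 1494 unassigned counts at day 7, against 9954 gene counts. At day 0 they held 236 and 190, against 434. In wild type they held 8236 and 1843 at day 7, against 14191, and 209 and 165 at day 0, against 375. The reason was not tested. For 6 of the 9 endoderm genes with reads, no read was assigned to genome 2 in any library. At a floor of 3 counts, the 0 genome 2 reads of 14315 assigned for Gata4 allow a share of up to 0.021%. Dab2 had 0 of 4964 (up to 0.0604%), Sox7 0 of 1405 (up to 0.214%) and Ttr 0 of 691 (up to 0.434%). Amn had 0 of 117 (up to 2.56%) and Foxa2 0 of 76 (up to 3.95%). The 95% exact intervals reach further, to 3.10% for Amn and 4.74% for Foxa2. Sox17 had 6 of 116, or 5.17% (95% exact interval 1.92 to 10.9%), and all 6 were in replicate 1 of the labelled knockout at day 7. The interval for Sox17 therefore leaves out the spread between libraries.

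Gata6 and Cubn had reads of both genomes. The genome 2 share of Gata6 was 37.6, 42.8 and 34.3% in libraries labelled knockout and 42.8, 39.9 and 36.5% in wild type at day 7, with a mean of 38.2 ± 4.29% and 39.7 ± 3.13% (SD, n = 3 each). The groups overlapped, and the edgeR test of the share gave a log2 difference of -0.10 (SE 0.26, adjusted p = 1 over 11032 genes, of which 0% were called). Gata4, Dab2 and Ttr entered the same test, but with no genome 2 read their result is void, and the other genes had fewer than 20 assigned reads in some library. Summed over the 12 libraries, Cubn had 133 genome 2 reads of 166 assigned, or 80.1% (95% exact interval 73.2 to 85.9%). That interval covers counting error only and not the spread between libraries. By group that was 47 of 51 in libraries labelled knockout and 30 of 43 in wild type at day 7, and 47 of 47 and 9 of 25 at day 0. Single libraries ranged from 0 to 100%, on at most 36 assigned reads each, so the groups are not compared.

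Genes near each of the 10 were read the same way. Among genes with at least 100 assigned reads within 5 Mb, a share under 5% was found in 54 of 72 around Gata4, 54 of 71 around Sox7, 12 of 17 around Sox17, 42 of 63 around Foxa2, 27 of 34 around Dab2, 24 of 32 around Ttr and 69 of 79 around Amn. It was found in 7 of 41 around Gata6, 0 of 35 around Cubn and 1 of 41 around Afp, whose neighbours had a median share of 42.9, 46.1 and 56.7%. Over all 14563 autosomal genes counted this way, 46.6% had a share under 5%. Gata4 and Sox7 lie within 1 Mb of each other on chromosome 14 and share most of these neighbours. Absence of genome 2 reads at Gata4, Dab2 or Sox7 stands beside a share under 5% at most genes nearby, and whether it reflects the cells' genotype or the assignment of reads was not tested.

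**Figure D5:**
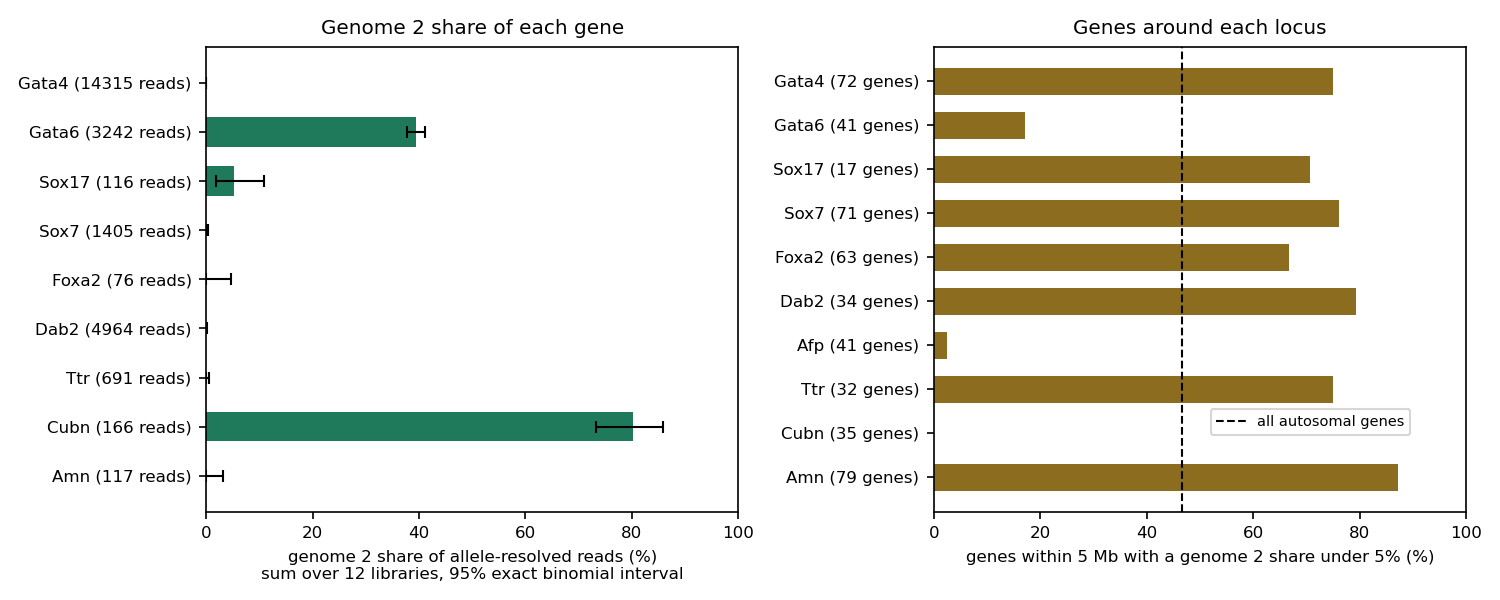
Genome 2 share of allele-resolved reads of each gene over the 12 libraries with its 95% exact interval (left, percent) and the percent of genes within 5 Mb that have a genome 2 share under 5% (right, with all autosomal genes as a dashed line at 46.6%). Intervals pool the 12 libraries and cover counting error only, not the spread between libraries. Gata6 and Cubn, the genes with many genome 2 reads, lie among neighbours that have them too.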

How the data were processed

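RNA was extracted with TRIzol and poly(A)-selected for library preparation, per the labels' protocols. The authors deposited StringTie estimated counts per gene and per transcript, and counts per gene split by parental genome. Per the submitters' processing notes, the tools named are StringTie 1.3.3, HISAT2 2.1.0, Trimmomatic 0.36, FastQC 0.11.3, DESeq2 1.32.0 and SAMtools 0.1.19, listed without role or order, on mm10/GRCm38. For settings and strandedness of the counting, a statement was not found in the labels. The treatment label (LIF or None) runs by replicate and genotype and not by day, so days follow the day label.

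The estimated counts were whole as deposited. Of 55487 genes, 19235 passed edgeR's filterByExpr by group. All 12 libraries entered 1 fit with TMM scaling and a coefficient per group, in R 4.3.3 with edgeR 4.0.16 (quasi-likelihood test, Benjamini-Hochberg adjustment). The allele test asked for at least 20 assigned reads in each day 7 library. The scripts were tested on simulated data. Alternatives were other size factors, no filter, the treatment label as a covariate, the replicate number as a block, only the compared groups, DESeq2 1.42.0, other read minimums for alleles, and each library left out. Intervals (95%) and floors (3 counts) cover counting error only.

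Members and lists were chosen with earlier results of these data known. Besides the 10 genes and Sirt7, the text names up to 4 tested genes of each related list with the largest absolute change between days in wild type, listed genes called between genotypes, and for each member the 2 genes of the nearest pattern among those with a mean log2 CPM of at least 2. Of the genes this rule names, 2 are not reported here.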

Additional observations from a re-analysis of the deposited data

Results flagged for a closer look

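Esrrb, a naive pluripotency factor, changed over 7 days by different amounts in the genotypes, and the test of that difference passed the threshold. Its log2 change was -6.61 in libraries labelled knockout (SE 0.27) and -3.69 in wild type (SE 0.24), an interaction of -2.92 (SE 0.32, edgeR adjusted p = 0.01519). It averaged 2.37 ± 0.185 CPM in libraries labelled knockout and 3.37 ± 0.455 CPM in wild type at day 7, against 231 ± 74.5 and 43.8 ± 9.26 CPM at day 0 (SD, n = 3 each). The adjusted p was 0.28 with the replicate block and 0.058 without replicate 3 of the labelled knockout at day 7.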

How the results depend on the processing

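Over the 18 alternatives the same 8 members were called between days in both genotypes, 6 higher and 2 lower. Between genotypes none was called, except that DESeq2 called 1 at day 0, Dab2. Counts over all genes moved more: 5 genes at day 7 with edgeR against 130 with DESeq2, 25 against 326 at day 0, and 5 against 132 for the interaction. At day 0 the count was 0 with only the compared groups and 10 with the treatment covariate. Leaving out 1 library at a time, the count ran from 5 to 13 at day 7 (13 without replicate 1 of the labelled knockout at day 7). At day 0 it ran from 6 (without replicate 3 of the labelled knockout at day 7) to 55 (without replicate 2 of the labelled knockout at day 0). For the interaction it ran from 0 (without replicate 3 of the labelled knockout at day 7) to 15 (without replicate 1 or 2 of the labelled knockout at day 0). Same-numbered libraries did not deviate together (correlations from -0.024 to 0.061). With the replicate block, 8 members were called between days in each genotype and 0 between genotypes, and 2 genes in all at day 7, 6 at day 0 and 0 in the interaction. Values that changed sign were all uncalled. With the replicate block the change over days in wild type was -0.37 for Cubn and -0.27 for Trp53inp1, and the interaction was 0.29 for Cubn and 0.037 for Amn. With only the compared groups the day 7 difference of Foxa2 was 0.029. Leaving out 1 library at a time also changed signs. For the change over days in libraries labelled knockout, the range was -0.49 to 0.48 for Cubn and -0.34 to 0.41 for Trp53inp1. For the change over days in wild type, the range was -0.51 to 0.65 for Cubn and -0.19 to 0.69 for Trp53inp1. For the genotype difference at day 7, the range was -0.58 to 0.081 for Sox7, -0.081 to 0.11 for Foxa2, -0.14 to 1.02 for Cubn and -4.70 to 3.20 for Amn. For the genotype difference at day 0, the range was -2.15 to 0.82 for Gata6, -0.19 to 0.094 for Sox7 and -5.74 to 0.36 for Foxa2. For the interaction, the range was -0.92 to 2.05 for Gata6, -0.55 to 0.11 for Sox7, -0.34 to 5.73 for Foxa2, -0.82 to 0.40 for Cubn and -3.82 to 4.08 for Amn. The Gata6 genome 2 share at day 7 had a log2 difference of -0.24 to 0.024. The cause was not tested. Low counts limit Cubn, Amn, Foxa2, Sox17 and Ttr.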
